A study of Mus musculus with 6 samples.

Results

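The genes described here make nitric oxide from arginine, break arginine down, rebuild it from citrulline or turn its product ornithine into polyamines. There were 10 of them among the 56448 genes of the table: Nos2, Nos3, Gch1, Arg1, Arg2, Ass1, Asl, Slc7a2, Odc1 and Oaz1. They were selected on their symbols, by pathway, with the TPM values of the same comparison already known, so their differences between the groups are a description. No p-value is given for them, and where they passed the fit over all genes this is counted but not read as evidence. The SEs and intervals of the members come from that fit, so they also draw on the variance of the other tested genes. They are not a plain measure of the spread between libraries, and are not read as a test. Of the 10, Nos2 differed most, with a mean of 52.6 TPM in in9 and 21.8 TPM in LV2, while Odc1 and Oaz1, the most abundant, overlapped between the groups and Arg1 and Slc7a2 were at or near 0. All 10 had exactly 1 row in the table and a gene in the GENCODE M21 annotation of mm10.

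The cells were 4T1, a mouse mammary carcinoma line grown in culture, and their messenger RNA was sequenced. The design text describes stable lentiviral knockdown of the microRNA miR-9 in a breast cancer line and a control group, with 3 repeats of each. The 6 libraries carry the genotype labels in9 (3 libraries) and LV2 (3 libraries), neither name is spelled out, and the labels do not say which is the control. The extraction protocol speaks of tissue and the design of a microarray, whereas the values are from sequencing. Differences are given as in9 minus LV2. Whether the replicates came from separate cultures, and whether each line is 1 clone or a pool, is not given in the sources used here, so the spread between replicates may be technical. Values are TPM, transcript abundances scaled by gene length and to a fixed total per library, from which the sequencing depth cannot be read.

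Nitric oxide synthases split arginine into nitric oxide and citrulline, and need tetrahydrobiopterin, whose synthesis starts with the enzyme made by Gch1. Arginases compete for the same arginine and release ornithine and urea, while argininosuccinate synthase (Ass1) and lyase (Asl) rebuild arginine from citrulline. Ornithine decarboxylase (Odc1) opens the polyamine pathway, and antizyme (Oaz1) binds that enzyme and sends it to the proteasome. In tumours the inducible synthase gene Nos2 and the arginase gene Arg1 are best known from myeloid cells.

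Because the series concerns miR-9, the 2 mature arms of the microRNA are shown with the seed, bases 2 to 8, in capitals. Both are from RefSeq (GRCm38.p6) and are encoded alike by Mir9-1, Mir9-2 and Mir9-3.
miR-9-5p: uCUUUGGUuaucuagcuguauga
miR-9-3p: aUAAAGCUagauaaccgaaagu

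Each gene's longest 3' UTR in the annotation was searched on the transcript strand for ACCAAAG or CCAAAGA (miR-9-5p) and for AGCTTTA or GCTTTAA (miR-9-3p). These are the matches to seed bases 2 to 8, or to bases 2 to 7 followed by A, and the 2 forms overlap in an 8-base match that was counted once. Of the 10 genes, 1 had a miR-9-5p match, against 20.3% of 21022 genes with a 3' UTR, and 3 had a miR-9-3p match, against 17.4%. The windows that follow are shown because they hold every match in the members above the expression minimum and in Sat1, a polyamine gene described further on, with the match in capitals.
Gch1, miR-9-5p: acttgacttagaggACCAAAGAgattgtta
Nos3, miR-9-3p: gagacttgttcaatGCTTTAAtgtgtaaa
Oaz1, miR-9-3p: acactcaagtgttgGCTTTAAttctaaat
Sat1, miR-9-3p: agcacccattccaaAGCTTTAttaccagt

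The Gch1 match is an 8-base one at chr14:47154234-47154241 on the minus strand, the Nos3 match lies at chr5:24384371-24384377 on the plus strand, the Oaz1 match at chr10:80829140-80829146 on the plus strand and the Sat1 match at chrX:155213379-155213385 on the minus strand, all in the 3' UTR in mm10. The other match among the 10 genes was a miR-9-3p one in Slc7a2. The 502-base 3' UTR of Nos2 held none of these letters, nor did those of Arg1, Arg2, Ass1, Asl and Odc1, nor the 1042-base 3' UTR of the polyamine gene Smox. A match is only a run of letters, and mature miR-9 was not measured in these libraries.

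The libraries gave some values that bear on all results. The first principal component held 28.1% of the variance. On it in9 replicate 1 stood at -2.70, and in9 replicates 2 and 3 at 26.1 and 27.8. LV2 replicate 1 stood at -6.98, and LV2 replicates 2 and 3 at -22.0 and -22.2. In both groups replicate 1 was thus the library nearest to the other group. The epithelial markers (Epcam, Krt8, Krt18, Krt14, Krt5 and Cdh1) summed to 1961 to 2001 TPM in in9 and 2069 to 2093 TPM in LV2, and 5 of the 6 were detected above 1 TPM. Krt8 and Krt18 made up most of these sums, and they and Epcam had every in9 library lower. The mean of Cdh1 went the other way, 141 TPM in in9 and 124 TPM in LV2, with overlapping groups. Krt14 overlapped as well. Of 10 macrophage markers 7 were below 1 TPM in all libraries, with Adgre1 at 0 in all of them and Ptprc and Csf1r at 0.12 TPM or less. The sum of the macrophage markers was 54.9 to 61.2 TPM in in9 and 48.9 to 54.1 TPM in LV2, nearly all of it Cd68, Cd14 and Mrc1. Of 6 endothelial markers 5 were below 1 TPM, and their sum was 2.26 to 2.86 TPM in in9 and 2.14 to 2.29 TPM in LV2. All 4 neutrophil markers were at 0.09 TPM or less, and 5 of 6 fibroblast markers were below 1 TPM, with Pdgfra carrying a sum of 7.95 to 8.43 TPM in in9 and 4.74 to 6.76 TPM in LV2.

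**Figure D1:**
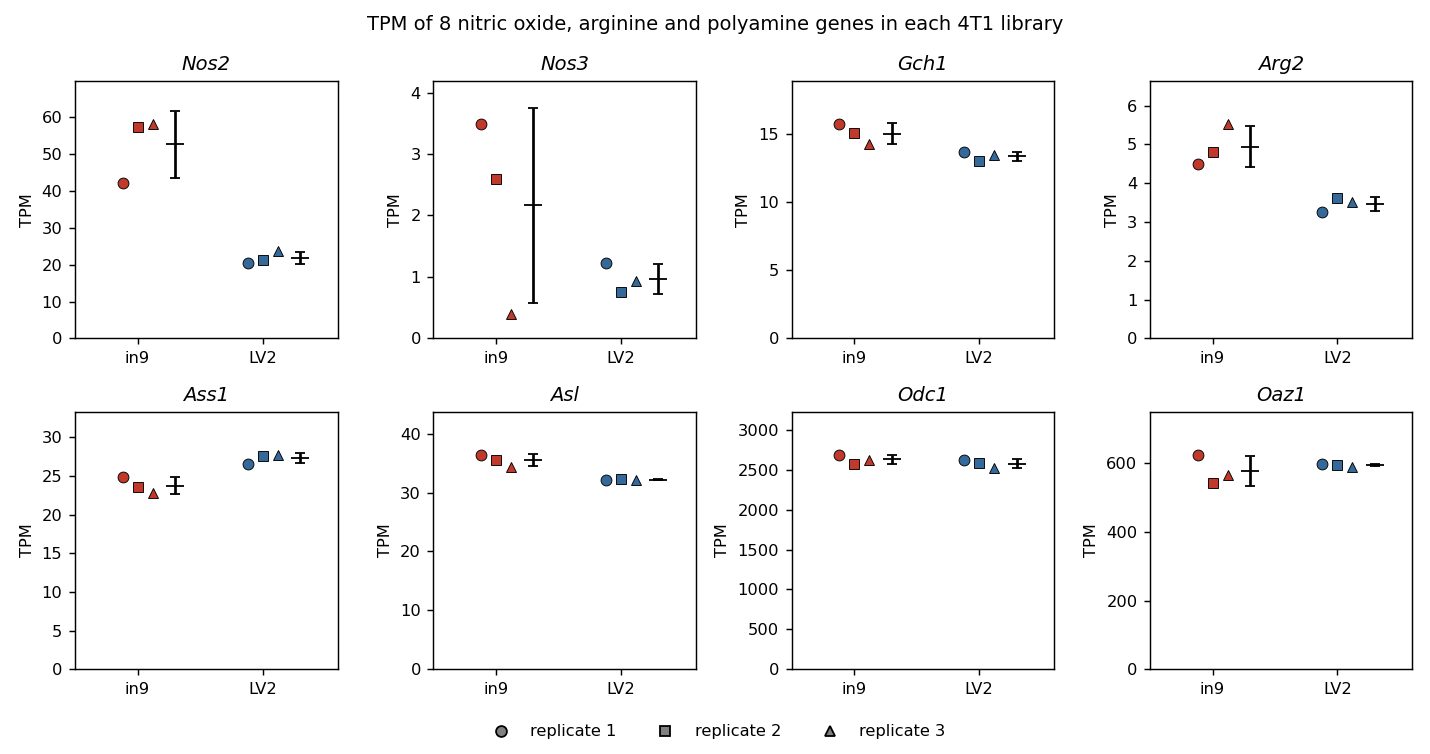
TPM (y axis, from 0) of the 8 genes above the expression minimum in each library of in9 (left, red) and LV2 (right, blue); symbols are replicates, and the bar beside them is the mean ± SD (n = 3). Nos2 sits at 42.3 to 58.2 TPM in in9, above 20.5 to 23.6 TPM in LV2, while the in9 libraries of Nos3 spread from 0.40 to 3.49 TPM.

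Nos2 encodes the inducible nitric oxide synthase, which makes nitric oxide in large amounts once its transcription is switched on. It lies on chromosome 11, positions 78920787 to 78960254, and no other annotated gene overlaps it. Its TPM was 42.3, 57.4 and 58.2 in in9 replicates 1 to 3, against 20.5, 21.4 and 23.6 in LV2 replicates 1 to 3. Every in9 library was above every LV2 library, and in9 replicate 1 was the lowest of its group. The means were 52.6 ± 8.96 TPM in in9 and 21.8 ± 1.62 TPM in LV2 (SD, n = 3 each), a ratio of 2.41. The difference in log2(TPM + 1) was 1.22 ± 0.13 (SE), and it ranged from 1.14 to 1.37 when any single library was left out and from 1.15 to 1.25 under the other settings. The macrophage markers Adgre1, Ptprc and Csf1r were at or near 0 in the same libraries. Cd68, which other cells express as well, was at 33.55, 40.6 and 38.7 TPM in in9 and 28.8, 27.5 and 28.3 TPM in LV2, with every in9 library higher. Cd14 went the other way, at 16.96, 16.4 and 15.8 TPM in in9 and 21.5, 17.9 and 17.6 TPM in LV2, with every in9 library lower. Mrc1 was at 3.74, 3.85 and 3.43 TPM in in9 and 3.10, 3.10 and 2.33 TPM in LV2, with every in9 library higher. The part of these markers in the difference of Nos2 was not tested. With bulk RNA, more cells expressing a gene and more of its RNA per cell cannot be told apart.

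Nos3 encodes the endothelial nitric oxide synthase, and its pattern differed from that of Nos2. It was at 3.49, 2.60 and 0.40 TPM in in9 replicates 1 to 3 and at 1.23, 0.75 and 0.93 TPM in LV2. The groups overlapped, since in9 held both the highest and the lowest library. The in9 mean of 2.16 ± 1.59 TPM had a coefficient of variation of 73.5%, against 25.0% around the LV2 mean of 0.970 ± 0.243 TPM. The difference in log2(TPM + 1) was 0.53 ± 0.44, with a 95% interval from -0.52 to 1.58, and was 0.20 without in9 replicate 1. The last 294 bases of Nos3 overlap Atg9b on the opposite strand, which was at 93.8, 85.9 and 85.8 TPM in in9 and 83.0, 73.2 and 76.7 TPM in LV2. Whether the counting used strand is not given in the sources used here, so the level of Nos3 is uncertain. The neuronal synthase gene Nos1 was at 0.01 TPM or less in all libraries.

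Gch1 encodes GTP cyclohydrolase, the entry enzyme of tetrahydrobiopterin synthesis. It was at 15.7, 15.1 and 14.2 TPM in in9 and 13.6, 13.0 and 13.45 TPM in LV2. The groups did not overlap, but the lowest in9 library, 14.2 TPM, was close to the highest LV2 library, 13.6 TPM. The difference in log2(TPM + 1) was 0.16 ± 0.07, with a 95% interval from -0.01 to 0.32, and it was 0.09 after trimmed-mean scaling of the libraries. Within a library Nos2 was on average 3.53 ± 0.741 times Gch1 in in9 and 1.64 ± 0.127 times Gch1 in LV2, without overlap.

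The arginases were scarce. Arg1, the cytosolic liver-type enzyme, was at 0.15 TPM in in9 replicate 2 and at 0 in the other in9 libraries, and at 0.30 TPM in LV2 replicate 1 and at 0 in the other LV2 libraries. Arg2, the mitochondrial enzyme, was at 4.49, 4.81 and 5.53 TPM in in9 and 3.26, 3.61 and 3.52 TPM in LV2. The groups did not overlap, with means of 4.94 ± 0.533 TPM in in9 and 3.46 ± 0.182 TPM in LV2 (SD, n = 3 each). The difference in log2(TPM + 1) was 0.41 ± 0.12 and was 0.28 after quantile normalization. The last 285 bases of Arg2 overlap Vti1b on the opposite strand, which was at 72.9 to 83.0 TPM in in9 and 78.3 to 86.5 TPM in LV2, so the low level of Arg2 is uncertain. In each library Nos2 exceeded Arg2, by a factor of 9.41, 11.9 and 10.52 in in9 and of 6.29, 5.91 and 6.72 in LV2.

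The citrulline recycling genes had small differences of opposite sign, and neither passed the fit over all genes. Ass1, whose enzyme joins citrulline and aspartate, was at 24.9, 23.6 and 22.8 TPM in in9 and 26.5, 27.6 and 27.7 TPM in LV2. It was the 1 member with every in9 library below every LV2 library, with a difference of -0.19 ± 0.06 in log2(TPM + 1). Asl, whose enzyme splits argininosuccinate into arginine and fumarate, was at 36.4, 35.55 and 34.4 TPM in in9 and 32.2, 32.4 and 32.1 TPM in LV2. Every in9 library was higher, by a difference of 0.13 ± 0.05, which was 0.07 after trimmed-mean scaling, where the difference of Ass1 was -0.26. The ratio of Asl to Ass1 within a library does not depend on a scaling factor of the library. It was 1.46, 1.51 and 1.51 in in9 and 1.21, 1.17 and 1.16 in LV2, and the groups did not overlap. With every in9 library higher for Asl and lower for Ass1, this ratio could not overlap, so its separation is no further result. The mean ratio was 1.49 ± 0.028 in in9 and 1.18 ± 0.029 in LV2 (SD, n = 3 each).

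Slc7a2 encodes a cationic amino acid transporter that carries arginine into cells and is best known in macrophages. It was listed at 0 in all in9 libraries, and at 0.01 TPM in LV2 replicate 1 and 0 in the other LV2 libraries. Slc7a1, the widely expressed transporter of the same family, was at 33.6 to 39.9 TPM in in9 and 33.7 to 39.1 TPM in LV2.

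The polyamine members were the most abundant of the 10. Odc1 was at 2689, 2573 and 2628 TPM in in9 and 2629, 2589 and 2517 TPM in LV2, and the groups overlapped. Its difference in log2(TPM + 1) was 0.03 ± 0.04, with a 95% interval from -0.06 to 0.12, and its sign turned, to -0.04, after trimmed-mean scaling. The small nucleolar RNA gene Gm22748 inside Odc1 was listed at 49.1 TPM in LV2 replicate 1 and at 0 in the other 5 libraries. Oaz1 was at 625, 543 and 565 TPM in in9 and 598, 595 and 591 TPM in LV2. The in9 libraries lay on both sides of LV2, with a coefficient of variation of 7.39% in in9 and 0.608% in LV2. The difference of Oaz1 was -0.04 ± 0.06, with a 95% interval from -0.18 to 0.09, and it turned to 0.01 after quantile normalization. The ratio of Odc1 to Oaz1 was 4.30, 4.74 and 4.65 in in9 and 4.39, 4.35 and 4.26 in LV2, and the groups overlapped. A pseudogene, Oaz1-ps, was listed at 14.7 to 20.2 TPM in in9 and 12.5 to 17.1 TPM in LV2, so some reads may be split between it and Oaz1.

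**Figure D2:**
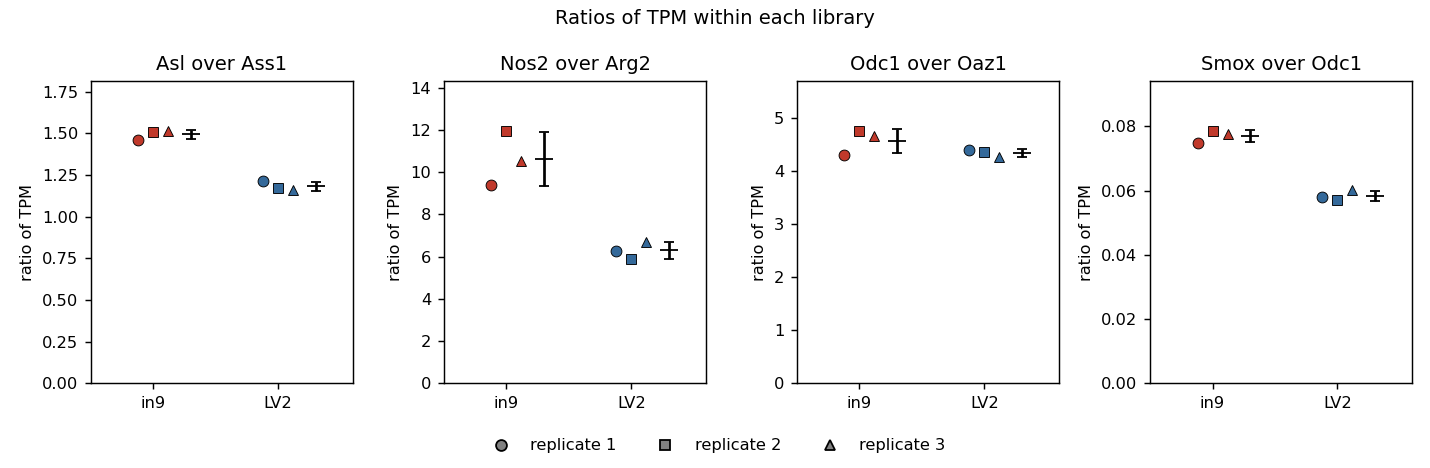
Ratios of TPM (y axis, from 0) within each library of in9 (left, red) and LV2 (right, blue), with mean ± SD (n = 3) beside the points. Asl over Ass1, Nos2 over Arg2 and Smox (spermine oxidase) over Odc1 do not overlap between the groups. For Asl over Ass1 this follows from the separate groups of Asl and of Ass1, and Smox over Odc1 mainly restates Smox. Odc1 over Oaz1 does overlap, at 4.30 to 4.74 in in9 and 4.26 to 4.39 in LV2.

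In TPM, the order of the members in in9 was Odc1, Oaz1, Nos2, Asl, Ass1, Gch1, Arg2, Nos3, Arg1 and Slc7a2. Neighbours in this order had separate ranges within in9 except Arg1 and Slc7a2, which were at or near 0. In LV2 Nos2 stood lower: its highest library, 23.6 TPM, was below the lowest of Ass1, 26.5 TPM, and of Asl, 32.1 TPM. The rest of the order was the same in LV2. Odc1 was 44.9 to 63.6 times Nos2 in in9 and 106 to 128 times Nos2 in LV2.

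Of the 10 members, 8 had a mean of at least 1 TPM over the 6 libraries and entered the fit across 13406 genes, and Arg1 and Slc7a2 did not. At an adjusted p under 0.05 in limma, 1 of these 8 (Nos2) was higher in in9 and 0 were lower, against 0.821% and 0.194% of all tested genes. Among the same 8 genes, 4 (Nos2, Gch1, Arg2 and Asl) had every in9 library above every LV2 library. In 1 (Ass1) every in9 library was below, against 17.4% and 8.08% of tested genes. Nothing is read from these counts, because the members were chosen with this comparison in view. The call of Nos2 was made without in9 replicate 1. It was lost in limma with each of the other 5 libraries left out, with no filter on low values, with no intensity trend and with a replicate block. Without each of those 5 libraries, 6 to 10 genes were called higher over all genes, against 110 in the main fit.

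**Figure D3:**
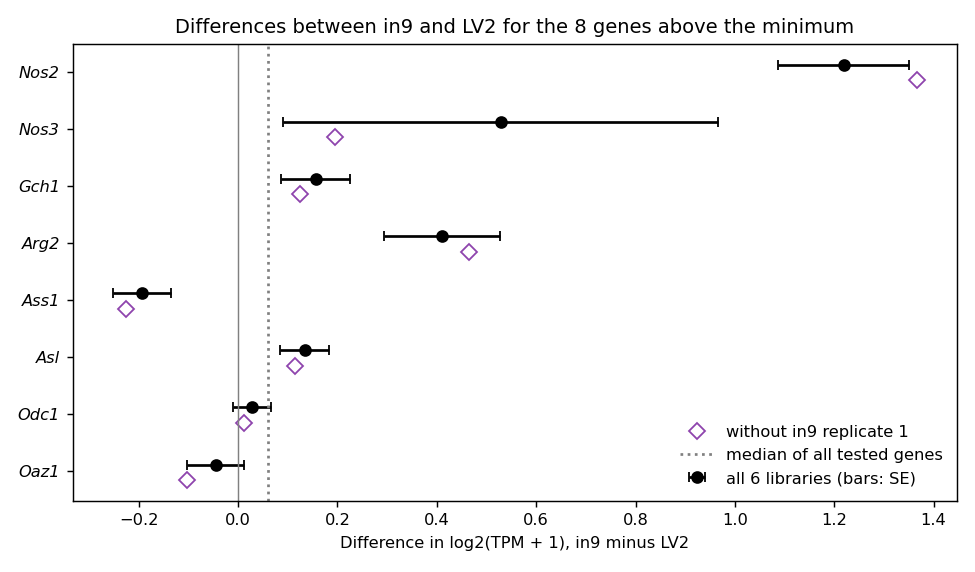
Difference in log2(TPM + 1), in9 minus LV2 (x axis), for the 8 members in the fit, with SE bars, and without in9 replicate 1 (open diamonds); the dotted line is the median of all tested genes, 0.06. Nos2 lies at 1.22 with all libraries and at 1.37 without in9 replicate 1, and Ass1 is the farthest below 0, at -0.19.

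Other genes of the pathway were read from 7 lists drawn up by function, with 72 reported genes in the table, of which 57 were above the minimum. In the fit over all genes 2 of the 57 were higher in in9 and 0 lower, against 0.821% and 0.194% of all tested genes. The 2 were the polyamine genes Smox and Sat1. The median difference of the 57 was 0.04, against 0.06 over all tested genes. Before adjustment, 11 had a p under 0.05 in limma with a higher mean in in9 and 5 with a lower one, where 19.5% of all tested genes passed in either direction.

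Smox and Sat1, which act in polyamine breakdown, were called higher in in9 in the main fit. Smox encodes spermine oxidase, which turns spermine into spermidine. It was at 201, 202 and 204 TPM in in9 and 153, 148 and 151 TPM in LV2, a difference of 0.42 ± 0.04 in log2(TPM + 1) (SE, adjusted p = 0.0101 in limma). Sat1 encodes the acetyltransferase that marks spermidine and spermine for export or oxidation. It was at 187, 194 and 179 TPM in in9 and 146, 135 and 141 TPM in LV2, a difference of 0.40 ± 0.05 (adjusted p = 0.0348 in limma). For both genes every in9 library was above every LV2 library. Against Odc1 of the same library, Smox stood at 0.0749 to 0.0785 in in9 and 0.0570 to 0.0601 in LV2, and Sat1 at 0.0681 to 0.0752 in in9 and 0.0523 to 0.0560 in LV2. As Odc1 overlapped between the groups, these ratios mainly restate Smox and Sat1.

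Of the 16 tested genes of the polyamine list, these 2 were called higher and 0 lower, against 0.821% and 0.194% of all tested genes. The median difference of the list was 0.08, against 0.06 over all tested genes. The oxidase gene Paox, which acts on acetylated polyamines, was at 6.54 to 8.41 TPM in in9 and 7.60 to 7.81 TPM in LV2. Srm, the spermidine synthase gene, was at 136, 121 and 134 TPM in in9 and 142, 165 and 148 TPM in LV2 (adjusted p = 0.196 in limma), with every in9 library lower. Oaz2, a second antizyme gene, was at 63.6 to 68.4 TPM in in9 and 55.5 to 60.6 TPM in LV2 (adjusted p = 0.146 in limma). Amd1, which makes the aminopropyl donor for both synthases and has a close copy in Amd2, was at 64.1 to 68.5 TPM in in9 and 63.9 to 68.5 TPM in LV2.

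Among the 12 reported upstream regulators of Nos2, 0 were called in limma, 3 higher and 0 lower genes had a p under 0.05 before adjustment, and the median difference was 0.10. Over all tested genes 19.5% had such a p in either direction and the median was 0.06, so the count of 3 of 12 is near that of all genes. Irf1, an interferon-induced factor that acts on Nos2, was at 36.2, 35.7 and 35.5 TPM in in9 and 31.7, 29.6 and 28.8 TPM in LV2 (adjusted p = 0.0971 in limma). Tnfrsf1a, a receptor for tumour necrosis factor, was at 44.6 to 48.3 TPM in in9 and 40.6 to 42.7 TPM in LV2 (adjusted p = 0.173 in limma). Hif1a, a hypoxia factor gene, was at 86.5, 112 and 111 TPM in in9 and 87.8, 85.3 and 83.4 TPM in LV2 (adjusted p = 0.239 in limma), with in9 replicate 1 inside the LV2 range. The NF-kB genes Rela and Nfkb1 had overlapping groups, at 70.6 to 75.7 and 101 to 105 TPM in in9 and 67.4 to 84.6 and 97.4 to 106 TPM in LV2.

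The calls of Smox and Sat1 were kept without in9 replicate 1. Leaving out each of the other 5 libraries in turn ended them, and adjusted p-values then ranged from 0.0685 to 0.102 for Smox and 0.101 to 0.179 for Sat1 in limma. In those 5 fits the genes called higher over all genes also fell, from 110 to between 6 and 10. With any single library left out, the difference was 0.41 to 0.43 for Smox and 0.38 to 0.43 for Sat1. Without in9 replicate 1 the list genes called were 5 higher and 2 lower, where 971 of 13386 tested genes were higher and 509 lower. Mtap, which recycles the by-product of polyamine synthesis, Atp13a3, a polyamine transporter gene, and Hif1a joined Smox and Sat1. Spr and Dynll1 were lower. After trimmed-mean scaling the adjusted p of Sat1 was 0.0559 in limma, and Smox passed. Both calls were lost with no intensity trend and with a replicate block, and that of Sat1 also with no filter on low values. Over all alternatives the adjusted p in limma ranged from 0.00654 to 0.195 for Smox and 0.0175 to 0.233 for Sat1.

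**Figure D4:**
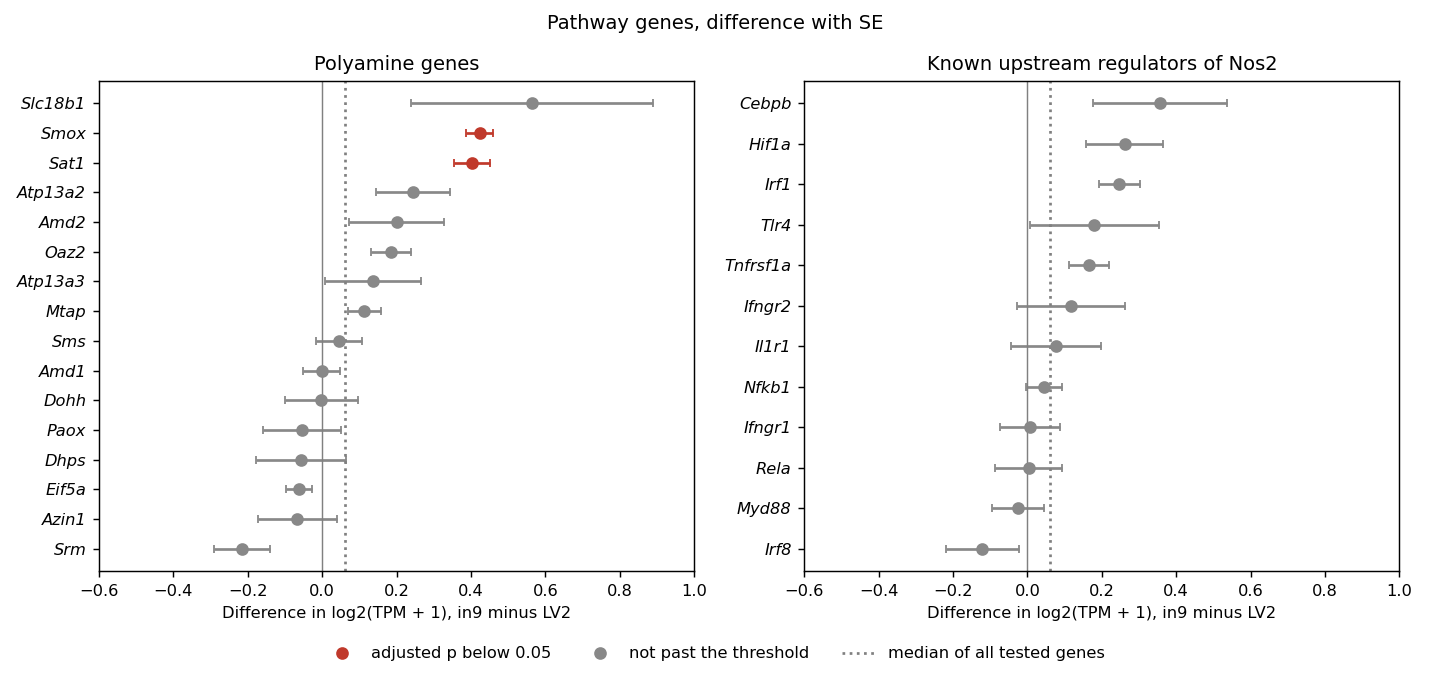
Difference in log2(TPM + 1), in9 minus LV2 (x axis), with SE bars, for the tested polyamine genes (left) and reported upstream regulators of Nos2 (right); red marks an adjusted p under 0.05 in limma and the dotted line the median of all tested genes. Smox and Sat1, at 0.42 and 0.40, are the red points, and Srm lies at -0.22.

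Of 6 tested tetrahydrobiopterin genes beside Gch1, 0 were called in limma, against 0.821% higher and 0.194% lower over all tested genes. At such shares, 0 of 6 says nothing particular about the list. Before adjustment, 0 higher genes and 1 lower gene had a p under 0.05, against 19.5% of all tested genes in either direction. The 1 was Spr, sepiapterin reductase, which makes the last step of the cofactor, at 68.4, 62.9 and 62.2 TPM in in9 and 73.2, 72.2 and 72.4 TPM in LV2 (difference -0.17 ± 0.05, adjusted p = 0.156). Pts, the enzyme gene between Gch1 and Spr, was at 15.2 to 16.6 TPM in in9 and 13.3 to 14.98 TPM in LV2. Gchfr, whose protein binds GTP cyclohydrolase and restrains it, was at 17.5 to 22.6 TPM in in9 and 14.6 to 18.3 TPM in LV2.

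Of the regulators of nitric oxide synthase and of nitric oxide signalling, 6 of 12 were above the minimum, and 0 were called in limma. Over all tested genes 0.821% were called higher and 0.194% lower, so 0 of 6 says nothing particular about the list. Before adjustment, p was under 0.05 for 0 higher genes and 1 lower gene, against 19.5% of all tested genes in either direction. Dynll1, a dynein light chain that binds the neuronal synthase, was the 1 lower, at 249, 185 and 194 TPM in in9 and 246, 246 and 255 TPM in LV2, with in9 replicate 1 inside the LV2 range. Ddah1, whose enzyme clears methylated arginines that inhibit the synthases, was at 70.4 to 76.7 TPM in in9 and 70.5 to 72.6 TPM in LV2, and Ddah2 at 3.59 to 5.92 and 4.37 to 7.40 TPM in the same order. The genes of the main nitric oxide receptor, soluble guanylate cyclase (Gucy1a1 and Gucy1b1), were listed at 0 in all 6 libraries.

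The arginine transport and sensing list had 0 of 9 genes called in limma, against 0.821% higher and 0.194% lower over all tested genes. At such shares, 0 of 9 says nothing particular about the list. Without adjustment the p of 2 higher genes and 1 lower gene was under 0.05, against 19.5% of all tested genes in either direction. The higher pair were Castor1, which encodes an arginine sensor of the mTORC1 pathway, and the related gene Castor2. Castor1 was at 35.6 to 39.5 TPM in in9 and 28.2 to 32.8 TPM in LV2 (adjusted p = 0.133 in limma). Castor2 was at 7.64 to 9.19 TPM in in9 and 6.0 to 7.03 TPM in LV2 (adjusted p = 0.153 in limma). The lower was Slc25a15, the mitochondrial ornithine carrier, at 6.48 to 8.45 TPM in in9 and 9.18 to 10.02 TPM in LV2. Urea cycle genes of liver mitochondria were nearly absent, with Otc at 0 in all libraries and Cps1 at 0.02 TPM or less.

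Of 6 reported and tested genes of ornithine and proline metabolism 0 were called in limma, against 0.821% higher and 0.194% lower over all tested genes. At such shares, 0 of 6 says nothing particular about the list. Before adjustment 0 higher genes and 1 lower gene had a p under 0.05, against 19.5% of all tested genes in either direction. Pycr1, which makes proline in mitochondria, was at 4.44, 4.70 and 4.90 TPM in in9 and 6.79, 6.07 and 6.85 TPM in LV2, a difference of -0.41 ± 0.10 (adjusted p = 0.104). Aldh18a1, which starts proline synthesis from glutamate, was at 49.2 to 56.3 TPM in in9 and 48.0 to 51.3 TPM in LV2. Aldh4a1, which oxidizes the breakdown product of proline, was at 3.02 to 3.44 TPM in in9 and 2.50 to 3.04 TPM in LV2. Oat, which links ornithine to proline and glutamate, was at 73.7 to 80.7 TPM in in9 and 73.9 to 77.6 TPM in LV2. Of the creatine and agmatine list 2 genes were tested and 0 called in limma. Before adjustment 1 of them, higher in in9, had a p under 0.05. The same shares over all tested genes apply, and nothing is read from counts of 2 genes. Gamt, which makes the last step of creatine synthesis, was at 13.96, 12.5 and 15.2 TPM in in9 and 10.6, 10.46 and 9.92 TPM in LV2 (difference 0.39 ± 0.09, adjusted p = 0.0961). Azin2, an antizyme inhibitor gene, was at 3.00 to 3.96 TPM in in9 and 1.95 to 3.51 TPM in LV2.

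The genes whose log2(TPM + 1) followed Nos2 most closely over the 6 libraries were Nt5dc2, Map2k1, Aqp5, Sirt2 and Akap12, with Pearson r between 0.996 and 0.998. This r contains the difference between the groups, which form separate clusters for Nos2, and is given as a ranking only. Nt5dc2 was at 29.2, 31.8 and 32.5 TPM in in9 and 21.4, 21.7 and 22.4 TPM in LV2. Aqp5, a water channel gene, was at 5.42, 7.83 and 7.99 TPM in in9 and 1.31, 1.16 and 1.49 TPM in LV2. Both have in9 replicate 1 as the lowest in9 library, as Nos2 does. With the group means taken out, the 5 nearest genes were Pa2g4, Ifi204, Atp5a1, Lrrc57 and Utp15 (r between 0.994 and 0.998), and none of them was among the first 5. Among the members, Arg2 had r = 0.97 with Nos2 over the 6 libraries and 0.74 with group means taken out, Ass1 -0.95 and -0.63, Asl 0.85 and -0.80, Gch1 0.76 and -0.70, Nos3 0.29 and -0.64, Odc1 0.28 and -0.83, and Oaz1 -0.55 and -0.91. For Asl, Gch1, Nos3 and Odc1 the sign thus differed between the libraries as a whole and the libraries within groups. Within groups, the in9 replicate 1 value of Nos2 lay farthest from its group mean, at 42.3 TPM against 57.4 and 58.2 TPM. The r within groups thus rests largely on that library and is also given as a description only.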

How the data were processed

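The authors deposited 1 table of TPM values for 56448 genes in 6 libraries, with a gene length and a group mean column. The build was mm10, per the submitters' processing notes. Which aligner, quantifier and gene models were used is not given in the sources used here. The 13406 genes whose mean reached 1 TPM were fitted as log2(TPM + 1) in limma 3.58.1 (R 4.3.3) with an intensity trend, in9 minus LV2, two-sided, without a replicate block. P-values were adjusted over all genes tested by the Benjamini-Hochberg method and called under 0.05. The log2(TPM + 1) scale understates differences of low genes. TPM keeps no depth, so no counting interval can be given. The fit was tested on simulated data.

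The members, lists and tests were chosen with earlier results of these data known. Besides the members, the text names list genes that were called, the 3 smallest p-values per list, and the 5 genes nearest to Nos2 by Pearson r; others (Slc7a1, Rela, Nfkb1, Paox, Srm, Amd1, Oat, Mtap, Atp13a3, overlapping genes and genes listed near 0) were chosen after their values were seen. Some list genes are not reported here and are left out of the lists' counts. Positions and 3' UTRs came from GENCODE M21 and miRNAs from RefSeq. Python 3.11.15 and pandas 2.3.3 prepared the tables. Alternatives were a pseudocount of 0.1, no filter, a minimum of 5 TPM, no trend, quantile normalization, trimmed-mean scaling, a replicate block and leaving out each library.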

Additional observations from a re-analysis of the deposited data

How the results depend on the processing

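The count of 110 genes higher and 26 lower in in9 over all genes was 24 and 6 with no filter on low values, 27 and 4 with no intensity trend, and 45 lower with a minimum mean TPM of 5. Leaving out 1 library gave 6 to 971 higher and 1 to 509 lower, with the highest counts without in9 replicate 1. The 2 list genes higher were 1 with no filter, 1 after trimmed-mean scaling and 0 with no intensity trend, and 0 to 5 when 1 library was left out, with 0 to 2 lower. After trimmed-mean scaling 86 were higher and 35 lower over all genes, and the median difference of all tested genes was -0.001, against 0.061 without it. Ddah1 turned to -0.025 and Aldh18a1 to -0.003 with that scaling. The cause of these shifts was not tested. The difference of Nos2 moved by less than its spread between replicates under all 13 alternatives run.

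Replicate numbers are shared between the groups, but the labels give them no common source. The main fit was planned without pairs. In a check added after the data were seen, the deviations of same-numbered libraries from their group means correlated across genes at -0.0969, 0.0223 and -0.0461. Those of different-numbered libraries correlated at -0.0556 to 0.0981. This check cannot decide whether same-numbered libraries shared a source. On the first principal component the replicate 1 libraries deviated from their group means in opposite directions. With a replicate block 1 gene was higher and 1 lower over all genes, and 0 list genes.

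Depth is unknown, so the counting error of low genes such as Nos3, Arg1 and Slc7a2 cannot be given.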

Other observations

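The table's own pathway annotation gave a broader view, added after the data were seen. Beside the members, 35 tested genes carried the term arginine and proline metabolism, of which 3 were called higher and 0 lower in limma, against 0.821% higher and 0.194% lower over all tested genes. Their median difference was 0.06, as it was over all tested genes. The 3 were Smox, Sat1 and Aldh2. Aldh2 encodes a mitochondrial aldehyde dehydrogenase, and it was at 270, 263 and 269 TPM in in9 and 202, 204 and 208 TPM in LV2, a difference of 0.39 ± 0.04 in log2(TPM + 1) (SE, adjusted p = 0.0148 in limma, 0.00771 to 0.208 over the alternatives). Trimmed-mean scaling left 1 of these calls. Leaving out in9 replicate 1 gave 3 higher and 0 lower calls, where 971 of 13386 tested genes were higher and 509 lower. Leaving out each of the other 5 libraries gave 0. Of 9 tested genes under arginine biosynthesis 0 were called in limma. At an unadjusted p under 0.05 in limma 0 passed, against 19.5% of all tested genes in either direction. The related dehydrogenase gene Aldh3a2, chosen after its values were seen, was at 26.3, 24.5 and 25.9 TPM in in9 and 21.7, 18.8 and 20.0 TPM in LV2 (adjusted p = 0.0872 in limma).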
